A study of Homo sapiens with 6 samples.

Results

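The cytosolic chaperones that the transcription factor HSF1 switches on, together with HSF1 itself, were followed in MM1.S cells after short exposure to either of 2 related inhibitors of the disulfide isomerase PDIA1. The 10 genes were taken by name from the 11048 genes listed in the expression files: HSPA1B, HSPA6, HSPA8, HSPA4 and HSPH1 of the HSP70 and HSP110 families, HSP90AA1 and HSP90AB1, the small heat shock protein gene HSPB1, the co-chaperone gene BAG3, and HSF1. MM1.S is an established human multiple myeloma line, a malignancy of antibody-secreting plasma cells. The cells were given 3 µM CCF642, 3 µM of its analogue CCF642-34, or the vehicle DMSO for 6 h, no gene was altered in any group, and polyadenylated RNA was sequenced from 2 libraries per group. The labels do not say whether the 2 libraries came from separate cultures, so p-values measure only the spread between these libraries, which may be technical. In the main test that spread was largely pooled across genes. A single line limits the results to that line.

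Heat shock proteins hold unfolded polypeptides and help them fold. In resting cells HSF1 is kept inactive by chaperones of the HSP70 and HSP90 systems. When damaged proteins in the cytosol occupy those chaperones, HSF1 forms trimers, binds heat shock elements built from alternating GAA and TTC units, and raises transcription of the chaperone genes. Unfolded proteins inside the endoplasmic reticulum (ER) are sensed by a separate set of pathways, the unfolded protein response, with its own chaperones such as HSPA5. Plasma cells secrete large amounts of antibody and so place a heavy load on protein folding.

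Heat shock elements are the letters through which HSF1 acts, and windows upstream of the genes were therefore read for 2 adjoining units, GAANNTTC or TTCNNGAA. Each of these reads the same on both strands, and 3 units in a row are counted as an overlap of both. The windows came from RefSeq (GRCh38.p14) and held 250 bases before and 50 bases after an annotated start, and 9 of the 10 genes matched an entry, HSF1 having none. Of those 9 genes, 6 held at least 1 adjoining pair and 4 (HSPA6, HSPA8, HSP90AA1 and HSP90AB1) held 3 units in a row. Among the 8871 listed genes with a window the shares were 13.7% and 0.44%, and among all 35116 windows they were 13.5% and 0.49%. The genes were picked as known targets of HSF1, so their higher shares are no independent evidence. The matching stretches are shown to let the genes be compared, 30 bases each on the gene's own strand, with the matching units in capitals:
HSPA1B, chr6:31827622-31827651, + strand: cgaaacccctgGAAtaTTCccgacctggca
HSPA6, chr1:161524349-161524378, + strand: ccgatctgcccGAAccTTCtcccggggtca
HSPA6, chr1:161524458-161524487, + strand: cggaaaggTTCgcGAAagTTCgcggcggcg
HSPA8, chr11:123062345-123062374, - strand: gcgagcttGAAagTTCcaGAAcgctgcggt
HSPA8, chr11:123062170-123062199, - strand: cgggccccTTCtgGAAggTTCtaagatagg
HSP90AA1, chr14:102087104-102087133, - strand: cTTCcgGAAggTTCgggaggcTTCtgGAAa
HSP90AB1, chr6:44247770-44247799, + strand: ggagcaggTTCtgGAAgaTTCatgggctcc
HSP90AB1, chr6:44247823-44247852, + strand: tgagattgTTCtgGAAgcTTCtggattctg
HSPB1, chr7:76302480-76302509, + strand: ccttaacgagaGAAggTTCcagatgagggc

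The first match began 105 bases before the start of HSPA1B, 182 before HSPB1, 180 and 74 before HSPA6, 230 and 55 before HSPA8, 88 before HSP90AA1, and 165 and 112 before HSP90AB1. In the GENCODE 29 annotation of GRCh38 the HSPA1B and HSPB1 stretches lay in no gene and the HSPA6 stretches in an intron of the transcript AL590385.2. The HSPA8 and HSP90AA1 stretches touched exons of longer transcripts of their own genes, and the HSP90AB1 stretches lay in an intron of such transcripts. HSP90AA1 and HSP90AB1 had several windows, each at a different annotated start. Matches were found only in window 2 of HSP90AA1 and window 3 of HSP90AB1, and the distances are from those starts. Window 1 of HSP90AA1 and windows 1 and 2 of HSP90AB1 held none. No match was found in the windows of HSPA4, HSPH1 or BAG3, which says only that these letters are not in those windows. A match describes the sequence and is not a measured binding site.

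The libraries held 20567313 to 28459677 reads, recovered from the steps of the deposited CPM (counts scaled to a common library total), and both CCF642-34 libraries were the deepest. All 10 plasma cell marker genes were listed, and their summed level was 9904 to 10003 CPM with DMSO, 7020 to 7054 CPM with CCF642 and 7866 to 7911 CPM with CCF642-34. The sum does not stand for each marker. JCHAIN, from 4316 and 4321 CPM with DMSO to 1792 and 1875 with CCF642 and 2339 and 2357 with CCF642-34, made up most of its drop, and SDC1 was also lower, from 851 and 870 CPM to 239 and 252 and to 359 and 383. TNFRSF17, POU2AF1, MZB1 and CD38 were also lower in each treated library than in either DMSO library. In proportion to its DMSO level TNFRSF17 fell most of these, from 162 and 170 CPM to 71.2 and 72.7 and to 84.9 and 91.7. IRF4 was higher, from 657 and 682 CPM to 1127 and 1147 and to 1355 and 1358. SLAMF7 was at 672 and 677 CPM with DMSO and at 781 to 800 CPM with either compound. PRDM1 was at 402 and 404 CPM with DMSO, 447 and 471 with CCF642 and 398 and 399 with CCF642-34. XBP1 stayed between 1311 and 1391 CPM in all 6 libraries. Of the 4 T cell markers only CD3E was listed, at 2.09 to 3.19 CPM, none of the 4 monocyte markers was listed, and of the 4 fibroblast markers only COL1A1 was, at 1.09 to 1.5 CPM with DMSO, 8.99 to 10.5 CPM with CCF642 and 2.74 to 3.53 CPM with CCF642-34. The part of these shifts in the results was not tested. In bulk RNA, fewer cells with a transcript and less of it per cell cannot be told apart.

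All 10 genes rose with CCF642, by 1.32-fold for HSF1 up to 4.62-fold for HSPA6. With CCF642-34, 9 of them rose, by 1.19-fold for HSPA4 up to 2.27-fold for BAG3, and HSPA1B did not pass the test. Set directly against each other at the same dose and time, CCF642-34 left 9 of the 10 genes lower than CCF642, and HSF1 was the exception. The same dose need not give the same inhibition of PDIA1, which these libraries do not measure. Fold changes are on the log2 scale of CPM after TMM scaling (a correction for differences in library composition) with a pseudocount of 1, and calls are limma adjusted p-values under 0.05 over all 11048 genes. The 2 comparisons with DMSO share their control libraries.

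**Figure D1:**
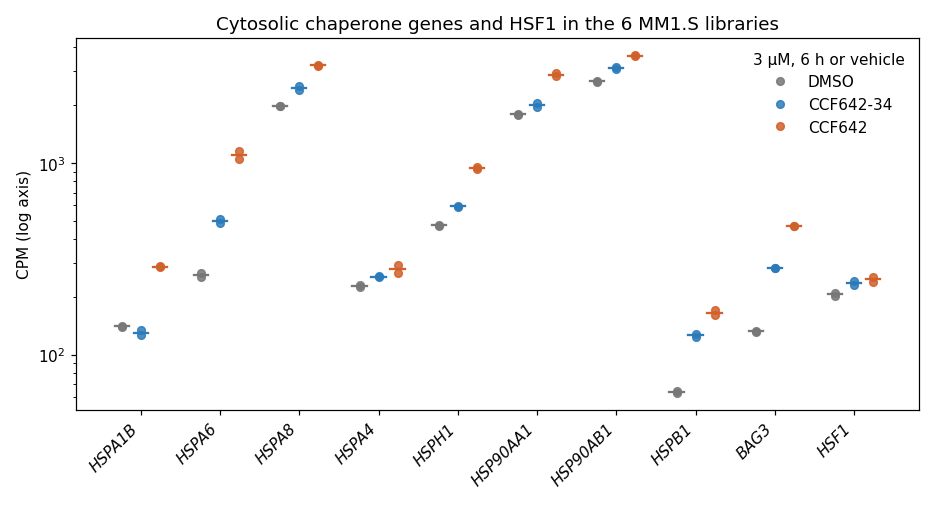
Deposited CPM on a log axis for the 10 genes in each of the 6 libraries. Points are libraries, short lines are group means of 2 libraries, and colours mark DMSO, CCF642-34 and CCF642. The CCF642 points lie above the DMSO points for every gene, while for HSPA1B the CCF642-34 points, at 134 and 126 CPM, lie just below the DMSO points.

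Among the stress-induced HSP70 genes, HSPA1B (chr6:31827735-31830255; gene positions here are those of GENCODE 29 on GRCh38) encodes the classical inducible HSP70, which is low in many unstressed cells. Its level was 141 and 140 CPM with DMSO, 285 and 288 CPM with CCF642, and 134 and 126 CPM with CCF642-34. Only the CCF642 libraries were high, and both CCF642-34 libraries lay slightly under the DMSO pair before scaling. The change with CCF642 was 2.23-fold (log2 1.16, SE 0.047, limma adjusted p = 2.21e-26), whereas with CCF642-34 it was 0.985-fold, with a 95% interval of 0.923 to 1.05 (limma adjusted p = 0.716). With library size alone as the scale, HSPA1B was called lower with CCF642-34 (log2 -0.11, limma adjusted p = 0.0377), and without CCF642-34 replicate 2 the estimate changed sign to 0.027, not called. CCF642-34 left HSPA1B at 0.441 times its CCF642 level (interval 0.413 to 0.471, limma adjusted p = 2.22e-25).

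HSPA6 (chr1:161524540-161526910) encodes another inducible HSP70, found in humans but not in mice. With DMSO it measured 109 CPM per kilobase of its longest coding transcript, and HSPA1B measured 55.7. Sequence that each shares with other genes leaves the order of these levels uncertain. HSPA6 stood at 254 and 265 CPM with DMSO, rose to 1147 and 1048 CPM with CCF642, and reached 508 and 488 CPM with CCF642-34. The 3 groups did not overlap, and CCF642-34 lay between the others. HSPA6 had the largest fold change of the 10 genes with CCF642, 4.62-fold (log2 2.21, SE 0.041, limma adjusted p = 1.22e-40), and it rose 2.04-fold with CCF642-34 (limma adjusted p = 1.46e-26). Its level with CCF642-34 was 0.441 times that with CCF642 (interval 0.417 to 0.467, limma adjusted p = 7.60e-28). HSPA1B and HSPA6 thus had the same estimate between the compounds, although HSPA6 was called with CCF642-34 against DMSO and HSPA1B was not.

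Reads of these genes can be hard to place. Of the 50-base windows in the HSPA1B transcript, 73.5% also occur in transcripts of other genes, and 71.4% in HSPA1A, which was not among the listed genes. For HSPA6 the share was 45.5%, all of it with HSPA7, also not listed. The shares were 18.8% for HSP90AB1, 17.5% for HSP90AA1, 15.4% for HSPA8 and 11.4% for HSPB1, and 0 for HSPA4, HSPH1, BAG3 and HSF1. How reads that fit several genes were counted is not given in the sources used here, so the levels of HSPA1B and HSPA6 are uncertain between each gene and its near copy.

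HSPA8 (chr11:123057489-123063230), the constitutive HSC70 that serves folding and clathrin uncoating in unstressed cells, was abundant in every library. Its level was 1973 and 1988 CPM with DMSO, 3208 and 3241 CPM with CCF642, and 2394 and 2503 CPM with CCF642-34. Again the groups did not overlap and the analogue lay in the middle. HSPA8 rose 1.79-fold with CCF642 (log2 0.84, SE 0.034, limma adjusted p = 1.52e-26) and 1.32-fold with CCF642-34 (limma adjusted p = 3.10e-14), and stood at 0.736 times its CCF642 level with the analogue (interval 0.703 to 0.772, limma adjusted p = 5.26e-15).

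The ratio of HSPA1B to the constitutive HSPA8 within a library does not depend on how libraries are scaled. There were 7.15 and 7.04 HSPA1B reads per 100 HSPA8 reads with DMSO, 8.88 and 8.90 with CCF642, and 5.60 and 5.04 with CCF642-34. The ratio lay above DMSO in both CCF642 libraries and below it in both CCF642-34 libraries. On the log2 scale, with a pseudocount of 1, the mean was -3.81 ± 0.016 (SD, n = 2) with DMSO, -3.49 ± 0.0019 with CCF642 and -4.23 ± 0.11 with CCF642-34. An exact permutation test of 2 against 2 libraries cannot give a p under 0.333, so no p is given for these ratios. Among the inducible HSP70 genes these ratios cover HSPA1B alone. HSPA6 went the other way with CCF642-34, rising 2.04-fold where HSPA8 rose 1.32-fold.

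A further ratio was computed after the values had been seen. HSPA6 gave 1.80 and 1.90 reads per HSPA1B read with DMSO, 4.02 and 3.63 with CCF642, and 3.79 and 3.87 with CCF642-34. Both compounds lay well above DMSO, and their libraries overlapped each other.

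**Figure D2:**
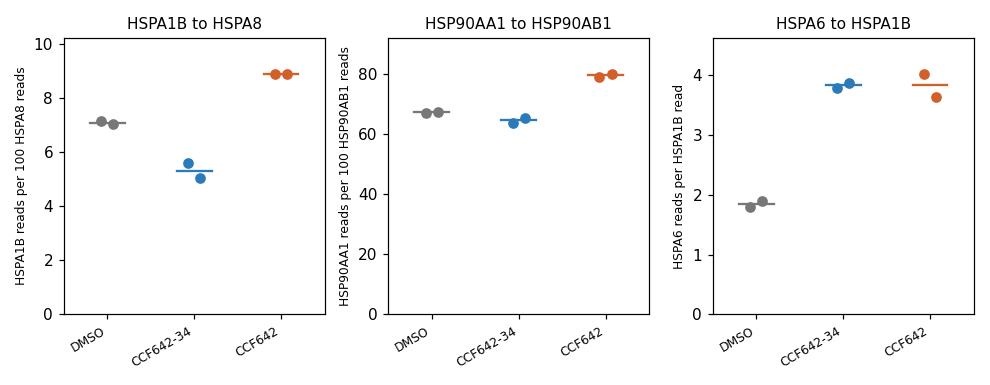
Reads of one gene set against reads of another within each library, on linear axes from 0. Points are libraries and lines are group means of 2 libraries. HSPA1B per 100 HSPA8 reads is highest with CCF642 (8.88 and 8.90) and lowest with CCF642-34 (5.60 and 5.04), whereas HSPA6 per HSPA1B read is above DMSO with both compounds.

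HSPA4 (chr5:133051962-133106449) and HSPH1 (chr13:31134974-31162388) encode HSP110-type proteins, which exchange the nucleotide on HSP70 and help it to dissolve aggregates. HSPH1 measured 475 and 469 CPM with DMSO, 928 and 954 CPM with CCF642, and 590 and 594 CPM with CCF642-34. The spread within each pair was small beside the gaps between groups. HSPH1 rose 2.18-fold with CCF642 (log2 1.13, SE 0.037, limma adjusted p = 3.73e-30) and 1.33-fold with CCF642-34 (limma adjusted p = 1.23e-13), and its level with the analogue was 0.611 times that with CCF642 (interval 0.580 to 0.643, limma adjusted p = 6.12e-21).

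HSPA4 moved far less. It measured 226 and 229 CPM with DMSO, 265 and 294 CPM with CCF642, and 254 and 256 CPM with CCF642-34. The 2 CCF642 libraries were further apart than any other pair for this gene, and the lower of them came close to the analogue's values. The increases were 1.35-fold with CCF642 (log2 0.43, SE 0.045, limma adjusted p = 1.69e-11) and 1.19-fold with CCF642-34 (limma adjusted p = 4.34e-06). The difference between the compounds, 0.886-fold (interval 0.832 to 0.944, limma adjusted p = 0.00227), was no longer called without CCF642 replicate 2 (log2 -0.096, limma adjusted p = 0.116).

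The 2 cytosolic HSP90 genes, whose products mature kinases, steroid receptors and other clients, were, per length, among the 3 most abundant of the 10. HSP90AA1 (chr14:102080738-102139699), the stress-inducible form, measured 1804 and 1773 CPM with DMSO, 2841 and 2932 CPM with CCF642, and 1967 and 2057 CPM with CCF642-34. HSP90AB1 (chr6:44246166-44253888), the form expressed steadily in most cells, measured 2686 and 2629 CPM with DMSO, 3593 and 3662 CPM with CCF642, and 3086 and 3146 CPM with CCF642-34. For both genes the 3 groups were separate and in the same order. HSP90AA1 rose 1.77-fold with CCF642 (log2 0.82, SE 0.034, limma adjusted p = 6.28e-26) and 1.20-fold with CCF642-34 (limma adjusted p = 9.17e-09). HSP90AB1 rose 1.5-fold with CCF642 (limma adjusted p = 1.34e-20) and 1.25-fold with CCF642-34 (limma adjusted p = 1.44e-11).

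Relative to CCF642, the analogue left HSP90AA1 at 0.676-fold (interval 0.644 to 0.709, limma adjusted p = 1.64e-18) and HSP90AB1 at 0.833-fold (interval 0.795 to 0.873, limma adjusted p = 1.40e-08). Within libraries, HSP90AA1 gave 67.2 and 67.4 reads per 100 HSP90AB1 reads with DMSO, 79.1 and 80.1 with CCF642, and 63.7 and 65.4 with CCF642-34. As with HSPA1B and HSPA8, the ratio of the inducible to the steady form lay above DMSO in both CCF642 libraries and below it in both CCF642-34 libraries. The gap below DMSO was small here, and inducible HSPA6 did not share it, having risen more than HSPA8 with CCF642-34.

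HSPB1 (HSP27), a small heat shock protein that holds unfolded proteins without using ATP, is often high in tumour cells. The gene lies at chr7:76302544-76304295. It measured 63.1 and 64.7 CPM with DMSO, 170.1 and 161 CPM with CCF642, and 129 and 124 CPM with CCF642-34. Both treated groups were far above DMSO. The rise was 2.81-fold with CCF642 (log2 1.49, SE 0.053, limma adjusted p = 8.18e-29) and 2.09-fold with CCF642-34 (limma adjusted p = 1.15e-22), and the analogue's level was 0.742 times that of CCF642 (interval 0.689 to 0.799, limma adjusted p = 6.98e-09).

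BAG3 (chr10:119651370-119677819) links HSP70 and small heat shock proteins and directs their clients to autophagy. Its level was 131 and 133 CPM with DMSO, 467 and 468 CPM with CCF642, and 283 and 282 CPM with CCF642-34. The pairs agreed closely, and no groups overlapped. BAG3 rose 3.86-fold with CCF642 (log2 1.95, SE 0.042, limma adjusted p = 1.13e-37) and 2.27-fold with CCF642-34 (limma adjusted p = 2.12e-28), its rise with the analogue being the largest fold of the 10 genes. With CCF642-34 it stood at 0.587 times its CCF642 level (interval 0.553 to 0.623, limma adjusted p = 4.46e-20).

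HSF1, on chromosome 8, is regulated mainly at the protein level, and its transcript moved modestly. It measured 201 and 211 CPM with DMSO, 240.0 and 255 CPM with CCF642, and 243 and 230 CPM with CCF642-34. Both treated groups were above DMSO, and they overlapped each other. HSF1 rose 1.32-fold with CCF642 (log2 0.40, SE 0.046, limma adjusted p = 1.79e-10) and 1.22-fold with CCF642-34 (limma adjusted p = 5.73e-07). The difference between the compounds, 0.925-fold with an interval of 0.868 to 0.986, missed the threshold narrowly (limma adjusted p = 0.0534) and fell on either side of it among the alternatives, from 0.00642 to 0.423.

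Counted against all genes, the calls stood as follows. CCF642 raised 10 of the 10 genes and lowered 0, where 31.8% of all genes were called higher and 31.3% lower. At 2-fold or more with an unadjusted p under 0.05 it raised 5 (HSPA1B, HSPA6, HSPH1, HSPB1 and BAG3), where 4.50% of all genes met that mark. CCF642-34 raised 9 and lowered 0, against 29.8% and 27.8% of all genes, and it raised 3 at least 2-fold (HSPA6, HSPB1 and BAG3), against 2.59%. Between the compounds 0 of the 10 were higher and 9 lower with CCF642-34, against 15.9% and 17.4% of all genes, and 2 (HSPA1B and HSPA6) were at least 2-fold lower, against 0.299%.

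Over the 10 genes the log2 fold changes had medians of 0.98 with CCF642, 0.36 with CCF642-34 and -0.50 between the compounds, beside medians over all genes of -0.0065, 0.0068 and 0.0094. With library size alone as the scale, the medians over all genes were -0.13, -0.078 and 0.051. On that scale CCF642 gave 2528 genes higher and 4738 lower in place of 3517 and 3456, CCF642-34 gave 2497 and 3972 in place of 3287 and 3076, and the direct comparison gave 2406 and 1488 in place of 1761 and 1924. At 2-fold it left CCF642-34 with 1 of the 10 genes in place of 3.

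**Figure D3:**
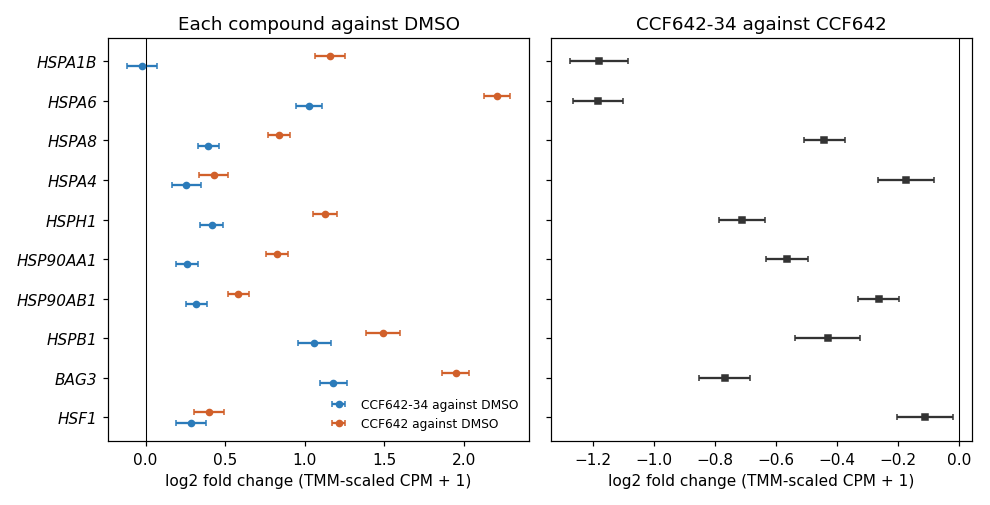
Log2 fold change of each of the 10 genes with its 95% interval from the limma fit, for each compound against DMSO (left) and for CCF642-34 against CCF642 (right). Every CCF642 estimate lies to the right of the CCF642-34 estimate for the same gene. On the right the gaps are widest for HSPA1B and HSPA6, each at -1.18, and narrowest for HSF1, at -0.11.

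The 10 genes together took 0.795 and 0.790% of all reads with DMSO, 1.31 and 1.33% with CCF642, and 0.959 and 0.980% with CCF642-34. CPM were also divided by the length of the longest coding transcript, to allow for transcript length. On that scale HSP90AB1 was highest in each group, with means of 994 CPM per kilobase with DMSO, 1357 with CCF642 and 1165 with CCF642-34. HSPA8 followed at 804, 1309 and 994 CPM per kilobase, and HSP90AA1 at 510, 822 and 573. The other 7 genes lay between 47.1 and 109 CPM per kilobase with DMSO, with HSPA4 the lowest. With CCF642, HSPA6 reached 463 CPM per kilobase and passed all but the 3 abundant genes. The scale does not allow for sequence shared with other genes, 73.5% of the windows of HSPA1B and 45.5% of those of HSPA6. The places of HSPA1B and HSPA6 in this order are therefore uncertain.

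Genes whose profile over the 6 libraries lay nearest to that of a pair of these genes were then sought among 8914 listed genes, by Euclidean distance of centred log2 values. Nearest to HSPA1B were BIRC3 (distance 0.160), TESC (0.262), DNAJB1 (0.303), PDLIM3 (0.331) and IER5 (0.349). BIRC3, an inhibitor of apoptosis and a target of NF-kappaB, averaged 145 CPM with DMSO, 281 with CCF642 and 130 with CCF642-34. Nearest to HSP90AA1 were THUMPD3-AS1 (0.050), RLIM (0.055), HSPD1 (0.056), BCL2L11 (0.095) and WSB1 (0.104), of which HSPD1 is the mitochondrial HSP60 and BCL2L11 the pro-apoptotic BIM. THUMPD3-AS1 is an antisense gene, and whether counting used strand is not given in the sources used here.

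Other genes known from textbooks as induced through HSF1 were listed in all 12 cases. The counts for this and the following lists are to be read against the shares of all genes called, 31.8% higher and 31.3% lower with CCF642, 29.8% and 27.8% with CCF642-34, and 15.9% and 17.4% in the direct comparison. With CCF642, 12 of 12 rose, 6 of them at least 2-fold, and the median log2 change was 0.98. With CCF642-34, 11 of 12 rose, 2 of them at least 2-fold, and the median was 0.59. In the direct comparison 11 of 12 were lower with the analogue, at a median of -0.45, and UBB was the one not called.

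Within that list the genes differed in how far the analogue moved them. DNAJB1, the J-domain partner that delivers clients to HSP70, measured 1120 and 1141 CPM with DMSO, 2113 and 2070 CPM with CCF642, and 1166 and 1165 CPM with CCF642-34. It rose 2.03-fold with CCF642 (limma adjusted p = 9.94e-30) and 1.10-fold with CCF642-34 (limma adjusted p = 0.000797), and its log2 difference between the compounds was -0.89 (limma adjusted p = 6.48e-26). IER5, an immediate early gene whose product acts on HSF1, likewise rose, by 1.41 and 0.30 on the log2 scale with CCF642 and its analogue, and was the single gene of the list at least 2-fold lower with the analogue (log2 -1.11, limma adjusted p = 6.48e-25). HSPE1, the co-chaperonin of HSPD1, rose with CCF642 (log2 0.66) and measured -0.06 with CCF642-34 (limma adjusted p = 0.673). Its level was low, at 13.3 to 25.4 CPM over the libraries, and the SE of its log2 changes was 0.107. HSPD1 itself rose with both compounds, by 0.80 and 0.26 on the log2 scale.

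A pair of genes in the list rose at least 2-fold with both compounds. ZFAND2A, a proteasome-associated zinc finger gene, measured 25.6 and 25.2 CPM with DMSO, 79.4 and 84.0 CPM with CCF642, and 70.5 and 70.0 CPM with CCF642-34. Its rises, 3.42-fold (limma adjusted p = 9.39e-28) and 2.86-fold (limma adjusted p = 9.29e-25), included the largest of the list with CCF642-34. The G protein regulator RGS2 measured 89.3 and 93.9 CPM with DMSO, 334 and 340 CPM with CCF642, and 181 and 185 CPM with CCF642-34. It had the largest rise of the list with CCF642, at log2 2.0 (limma adjusted p = 1.93e-36), and rose by 1.08 on the log2 scale with CCF642-34 (limma adjusted p = 4.03e-25).

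Partners of the chaperones had smaller median changes than the 10 genes. Of 15 HSP90 co-chaperone genes 14 were listed, and 10 rose and 2 fell with CCF642 (median log2 fold change 0.20), while 7 rose and 3 fell with CCF642-34 (median 0.09). Between the compounds 8 were lower with the analogue and 0 higher. CHORDC1 was the one gene of this list that rose at least 2-fold, from 81.8 and 80.6 CPM with DMSO to 159 and 153 CPM with CCF642 (2.09-fold, limma adjusted p = 5.06e-23). With CCF642-34 it measured 93.4 and 93.6 CPM, a 1.22-fold rise (limma adjusted p = 6.13e-06). The largest decrease was that of FKBP5, a glucocorticoid-responsive immunophilin that slows steroid receptor activation, at log2 -0.47 with CCF642 and -0.54 with CCF642-34, and PPP5C also fell, at -0.38 and -0.31. FKBP4, an immunophilin that helps steroid receptors to the nucleus, fell with CCF642-34 (log2 -0.16, limma adjusted p = 0.0019) and measured 0.10 with CCF642 (limma adjusted p = 0.0505).

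Among the 8 HSP70 co-chaperones, all listed, CCF642 raised 3 and lowered 2 (median log2 fold change 0.08), and CCF642-34 raised 2 and lowered 2 (median -0.06). These shares are near those of all genes. Both compounds raised ST13, which steadies the client-bound state of HSP70, by 0.39 and 0.36 on the log2 scale, and HSPBP1, a nucleotide exchange factor, by 0.22 and 0.28. BAG6 was the third gene called higher with CCF642, at log2 0.60, but its level was only 0.607 to 2.14 CPM in any library. BAG1 fell, by 0.52 and 0.33, as did BAG2, by 0.31 and 0.42. BAG3, described above, is of the same family as BAG1 and BAG2 and moved the other way.

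Relatives outside the HSF1-induced set did not move as a block. Of 17 other cytosolic HSP70, HSP110 and small HSP family genes 4 were listed, among which HSPA4L rose (log2 0.75 with CCF642, 0.38 with CCF642-34), HSPA14 and HSPB11 fell with both, and HSPA12A was not called with either. The 4 listed genes of 8 in the HSF family and its binding partners gave 0 higher and 2 lower with CCF642 (HSF2 at log2 -0.22 and HSBP1 at -0.26) and 0 higher and 1 lower with CCF642-34 (HSF4 at -0.30). HSF1 was thus the only listed HSF gene called higher with either compound.

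Chaperones of the same families in the ER and mitochondria were described beside the cytosolic genes. Of 6 such genes, all listed, 5 rose and 1 fell with CCF642 (median log2 fold change 0.90), and 4 rose and 1 fell with CCF642-34 (median 0.81). In the direct comparison 3 were lower with the analogue and 0 higher, at a median of -0.07. HSPA13, a microsomal HSP70 relative, measured 189 and 189 CPM with DMSO, 480 and 466 CPM with CCF642, and 491 and 530 CPM with CCF642-34, and the log2 difference between the compounds was 0.07, with an interval of -0.02 to 0.15 (limma adjusted p = 0.232). The ER chaperone HSPA5 (BiP) measured 1331 and 1328 CPM with DMSO, 2854 and 2934 CPM with CCF642, and 2308 and 2332 CPM with CCF642-34, so that it rose 2.39-fold and 1.86-fold. HYOU1, the ER relative of HSP110, rose by 0.69 and 0.73 on the log2 scale, and the mitochondrial HSP70 gene HSPA9 by 1.12 and 1.0. HSP90B1, the ER member of the HSP90 family, moved least of the genes that rose with CCF642, at log2 0.22, and was not called with CCF642-34, at 0.07 (limma adjusted p = 0.0938). TRAP1, the mitochondrial HSP90, fell by 0.21 and 0.22.

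**Figure D4:**
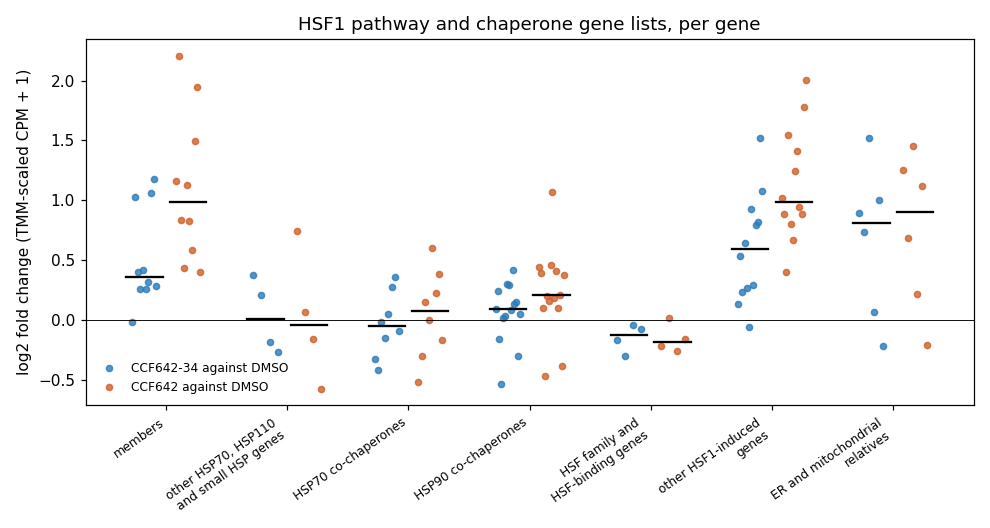
Log2 fold change of each listed gene with CCF642-34 (blue) and CCF642 (orange) against DMSO, by gene list, with black lines at list medians. The 10 genes and the other HSF1-induced genes both have a CCF642 median of 0.98 and have CCF642-34 medians of 0.36 and 0.59, while the ER and mitochondrial relatives have medians of 0.90 and 0.81.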

How the data were processed

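RNA from MM1.S cells was compared in 6 libraries, 2 per group. The authors deposited CPM (counts scaled to a common library total) per gene and library. The submitters' processing notes name STAR, edgeR 3.24.3, limma 3.38.3 and genome build hg19. The counting tool and annotation are not given in the sources used here. All CPM values were whole multiples of 1 read within 0.1 read (100%), which gave depths of 20567313 to 28459677 reads, and no gene listed had a highest CPM under 1.5. Depth sets the counting error only.

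Deposited CPM were scaled by TMM (edgeR 4.0.16) and tested as log2(CPM + 1) by limma 3.58.1 with a mean-variance trend in R 4.3.3, with all 3 groups in 1 fit, no replicate block, and Benjamini-Hochberg adjustment over 11048 genes (residual degrees of freedom 3, prior 42.9). A fold of 2 with an unadjusted p under 0.05 was a second mark. A small p rests on variance shared across genes. In the gene-wise linear model, HSPA6 with CCF642 against DMSO had an adjusted p of 0.00225 in place of 1.22e-40 in limma. HSPA1B between the compounds had 0.0212 in that model in place of 2.22e-25 in limma.

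The 10 genes and all lists were chosen with earlier results of these data known. 1 gene of the list of other HSF1-induced genes is not reported here and was left out of its counts and medians. Named genes were the 10 genes, the largest increase or decrease of a list, any in a count of 5 or fewer, and the 5 genes (mean log2 of at least 3) nearest to HSPA1B or HSP90AA1. The ratio of HSPA6 to HSPA1B and the single plasma cell markers named were added after their values were seen.

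Gene positions, transcript lengths and shared windows came from GENCODE 29 on GRCh38 and upstream sequences from RefSeq on GRCh38.p14. They are not on the build of the notes and were used for description only. Alternatives were DESeq2 size factors, library size alone, pseudocounts of 0.1 and 4, a mean CPM of at least 5, edgeR quasi-likelihood, DESeq2 (1.42.0) and limma-voom on recovered reads, a gene-wise model, 2-group fits, a replicate block and leaving out each library.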

Additional observations from a re-analysis of the deposited data

How the results depend on the processing

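Of 510 alternative fold changes of the 10 genes, 499 kept direction and call, 7 became called, 3 lost the call and 1 changed sign. HSPA1B with CCF642-34 against DMSO, not called at -0.02, was 0.027 without CCF642-34 replicate 2 and ran from -0.0689 to 0.027 when single libraries were left out. With library size alone it was called lower, so that 1 of the 10 genes was lower with CCF642-34, and the genes at least 2-fold higher fell from 3 to 1 (2 to 3 when single libraries were left out). The same scaling left 4 in place of 5 with CCF642. HSPA4 lost its call in the gene-wise model with CCF642-34 against DMSO (adjusted p = 0.0676) and between the compounds (adjusted p = 0.202), and between the compounds without CCF642 replicate 2. HSF1 between the compounds became called with DESeq2 size factors, edgeR quasi-likelihood, limma-voom, the replicate block, and when the first library of CCF642 or of CCF642-34 was left out. The count of genes lower with CCF642-34 than with CCF642 was 8 to 10 over the alternatives. The mean log2 ratio of HSPA1B to HSPA8 with CCF642 was -3.49 with a pseudocount of 0.

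Over all genes, the gene-wise model gave 2173 higher and 1936 lower with CCF642-34 (3287 and 3076 in limma), and 242 and 497 between the compounds (1761 and 1924). Leaving out either CCF642-34 library (replicate 1 or 2) gave 1044 or 1168 in place of 1761. The cause was not tested.

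Replicate numbers are shared by name only: deviations of same-numbered libraries correlated at -0.0089, -0.056 and 0.047 across genes. With the replicate block 10 of the 10 genes were lower with CCF642-34 than with CCF642, HSF1 being added at log2 -0.11 (limma adjusted p = 0.0465), and no other call among the 10 genes changed. With 2 libraries a group, small differences such as that of HSF1 sit at the limit of what can be told apart.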

Other observations

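HSPA1A, the near-identical neighbour of HSPA1B on chromosome 6, was not among the listed genes. Of 98 protein-coding genes within 1 Mb of HSPA1B in GENCODE 29, 18 were listed (18.4%), beside 512 of 1044 on chromosome 6 (49%) and 10890 of 19969 in all (54.5%). BAG6, in the same region, was listed at 0.607 to 2.14 CPM. The cause of these low shares was not tested.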
